A study of Mus musculus with 22 samples.

Results

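Mouse E14 embryonic stem cells (ESCs) treated with Bromosporine were compared with cells of the group labelled NC, across all genes. The comparison used 4 of the 22 RNA-seq libraries of the series, Bromosporine 1 and 2 and NC 1 and 2, chosen by their labels. The other 18 libraries came from 9 further compounds and served to estimate the spread and as a second reference. The question was which transcripts change with the compound. All libraries came from the same cell line, a single genetic background, and no knockdown or allele was named for any of them. The labels gave neither dose nor exposure time, and did not say what NC stands for or whether it contained a solvent. The study's methods grew its ESCs in serum with LIF and did not mention the compounds. Nothing in the labels said that the 2 libraries of a group were separate cultures, so p-values measure only the spread between these libraries, which may be technical.

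Bromosporine is a small molecule that binds the bromodomains of many protein families. Bromodomains are the protein modules that read acetylated lysine on histones. The best known readers are the BET proteins, including Brd2 and Brd3, which connect acetylated promoters and enhancers to P-TEFb, the kinase that releases paused RNA polymerase II. In ESCs these readers are known for their place at enhancers of pluripotency genes.

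The deposited values are read counts per gene after a normalization that brings libraries toward the same distribution, so library totals do not show sequencing depth. The distributions were not identical, since the number of genes at 0 still differed between libraries, as given below. The depth of each library is unknown here, and no detection limit can be given. A change shared by most genes would not appear in such values. Values are given below in the order NC 1, NC 2, Bromosporine 1, Bromosporine 2, and changes are on the log2(value + 1) scale with their standard error (SE), which understates changes of low genes. The ESC markers were present in all 4 libraries. Pou5f1 stood at 28606, 29454, 30833 and 30833, and Sox2 at 14112, 10935, 18762 and 14408. Nanog, Esrrb, Zfp42 and Dppa5a ran from 16469 (Zfp42 in NC 1) to 59405 (Nanog), and Sall4, Klf4 and Fgf4 from 3429 to 9790.

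Far more genes fell than rose. Of 17275 tested genes, 478 fell (2.77%) and 99 rose (0.573%) against NC. A gene was called where it changed more than 2-fold and its p, adjusted by the Benjamini-Hochberg method, was under 0.05. Among the 401 falling genes above 0 in all 4 libraries the log2 changes reached -4.55 (Serpinf1) with a median of -1.82, and 157 of them fell more than 4-fold. The 95 rising genes above 0 in all 4 libraries reached 3.47 (Dnmt3l) with a median of 1.33, and 12 of them rose more than 4-fold. The median log2 change of all tested genes was 0.01. A further 77 falling genes were listed at 0 in at least 1 of the 4 libraries, 47 of them in both Bromosporine libraries, and no fold change is given for these 47. The libraries Bromosporine 1 and 2 held 1655 and 1707 genes at 0, against 1380 and 1336 in NC 1 and 2. The part of this difference in the falls of low genes was not tested.

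The direction of change was the same within both replicate numbers for all 577 called genes. The tested change is the mean of the changes within number 1 and number 2. Such agreement among called genes therefore largely follows from the call and is no separate evidence. Within number 1 (Bromosporine 1 against NC 1) and within number 2 (Bromosporine 2 against NC 2), 425 of the 478 falling genes changed over 2-fold in both, as did 64 of the 99 rising genes. Without regard to the test, 912 genes (5.28%) were over 2-fold lower and 238 genes (1.38%) over 2-fold higher within both numbers. Another 111 genes were over 2-fold different within both numbers but in opposite directions. The number of calls depended on single libraries. It dropped to 218 without NC 1 and to 299 without Bromosporine 1, and was 403 without NC 2 and 487 without Bromosporine 2. Without NC 1, 186 genes fell and 32 rose, and without Bromosporine 1, 272 fell and 27 rose. Without NC 2, 313 genes fell, and without Bromosporine 2, 58 genes rose.

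**Figure D1:**
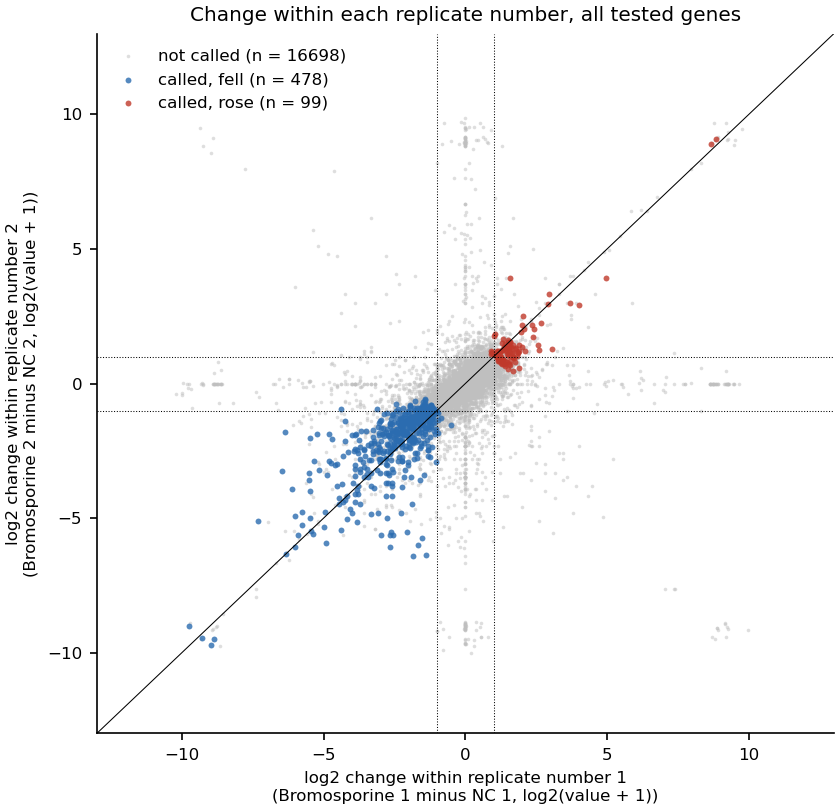
Change of each tested gene within replicate number 1 (horizontal axis) and within replicate number 2 (vertical axis), as differences of log2(value + 1). Dotted lines mark 2-fold changes, and the 478 falling (blue) and 99 rising (red) genes lie in the lower left and upper right, while genes at 0 in single libraries form the grey bands along the axes.

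The share of genes that fell was higher at low levels, and the share that rose was highest between 30 and 100. Among genes with a mean over the 4 libraries of 30 or less, 5.54% fell, and among those between 30 and 100, 4.80% fell. Of the genes between 1000 and 3000 and over 3000, 1.08% and 0.412% fell. Rising genes made up 0.196% of those at 30 or less, 1.63% of those between 30 and 100, 0.453% of those between 300 and 1000 and 0.0375% of those over 3000, which was 1 gene of 2668. Over the 478 falling genes the median of the group means was 164.5 in NC and 43 with Bromosporine, and over the 99 rising genes it was 64.5 in NC and 170.5 with Bromosporine. How far the level itself set the chance of a call was not tested.

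**Figure D2:**
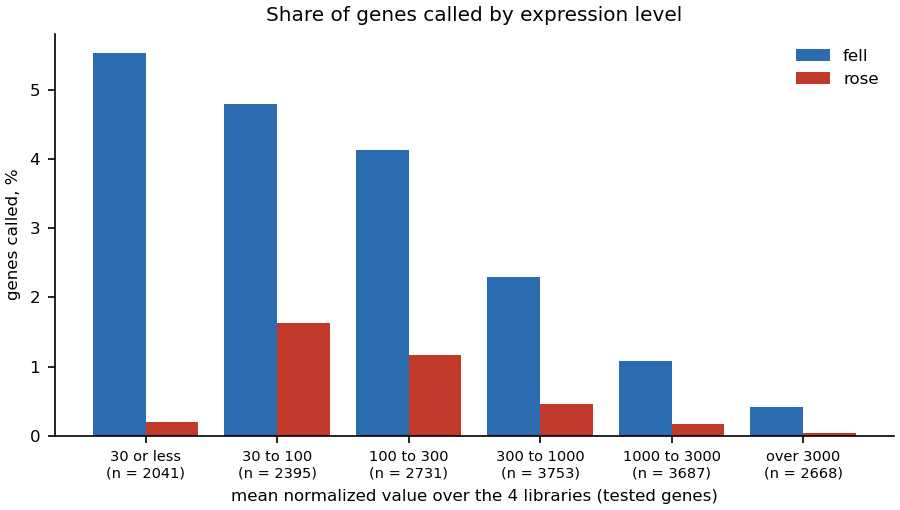
Percent of tested genes called as falling (blue) or rising (red), in 6 classes of the mean normalized value over the 4 libraries, with the number of tested genes under each class. The share that fell goes from 5.54% in the lowest class to 0.412% in the highest.

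Many of these changes were also seen against the other compounds. Against the mean of the 9 other compounds, 734 genes (4.25%) were called lower and 136 (0.787%) higher with Bromosporine. Of the genes called against NC, 390 of the 478 falling genes (2.26% of all tested) and 43 of the 99 rising genes (0.249%) were called the same way against this second reference. Both comparisons use the same Bromosporine libraries, so they are not independent. In 236 falling genes both Bromosporine libraries lay below all 18 libraries of other compounds, and in 45 rising genes both lay above all 18.

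Called genes above 0 in all 4 libraries with a larger group mean of at least 100 were ranked by the smaller of their changes within the 2 numbers. Among them the 12 largest rises were led by Nedd9, Gm11274 and Dnmt3l. Nedd9, a scaffold protein of focal adhesions (chr13:41309581-41487362 in mm10), had values of 9, 11, 128 and 94. Both Bromosporine libraries were far above both NC libraries (log2 change 3.34 ± 0.51, adjusted p = 0.00235). Kitl, the ligand of the receptor Kit (chr10:100015630-100100416), had 24, 21, 127 and 98, and both Bromosporine libraries exceeded the 12 to 70 seen in the libraries of other compounds (2.26 ± 0.60, adjusted p = 0.0461). Hist1h1c, a linker histone, had 84, 107, 351 and 619, with at most 281 in the other compounds. Pde9a, a phosphodiesterase that degrades cyclic GMP, had 46, 55, 250 and 226 (2.22 ± 0.32, adjusted p = 0.00177). Cdk5r1, an activator of the kinase Cdk5, had 34, 32, 146 and 132, and Hey1, a transcriptional repressor induced by Notch signalling, 66, 52, 259 and 199. Adamts7, a secreted metalloprotease, had 185, 198, 531 and 607. Cd24a, a small glycosylated surface protein, had 329, 338, 942 and 997, within the range of 264 to 1349 of the other compounds. The remaining genes among these 12 were Dnmt3l, described below, Spata2l and the long noncoding RNA genes Gm11274 (89, 112, 685 and 878) and Gm26711 (62, 55, 187 and 161). Dnmt3l, Pde9a, Gm26711, Adamts7, Spata2l and Nedd9 overlap exons of genes on the opposite strand, and the counting is not stated to have used strand.

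By the same ranking 11 of the largest falls are described here. Entpd3, an enzyme that hydrolyses extracellular nucleotides (chr9:120539818-120568327), had 201, 126, 11 and 4. Spi1, the blood-lineage transcription factor PU.1 (chr2:91082390-91115756), had 121, 106, 5 and 7, while the libraries of other compounds lay between 35 and 247 (log2 change -4.04 ± 0.35, adjusted p = 6.02e-05). Serpinf1, a secreted serpin also known as PEDF (chr11:75409769-75422701), had 229, 214, 4 and 17 (-4.55 ± 0.61, adjusted p = 0.00109). Bhmt, which transfers a methyl group from betaine to homocysteine (chr13:93616675-93637961), had 3311, 2581, 253 and 267, below all 18 libraries of other compounds, whose lowest value was 834 (-3.49 ± 0.40, adjusted p = 0.000436). Gstt1, a glutathione transferase, had 58, 150, 3 and 13, and Fat2, an atypical cadherin, 170, 110, 15 and 9. Both genes lay under the lowest values of the other compounds, 29 and 36. Cox6a2, the heart and muscle form of a cytochrome c oxidase subunit, had 317, 299, 11 and 38, while the other compounds reached as low as 1. Aatk, a kinase, had 158, 58, 16 and 3, and Napsa, an aspartic protease, 160, 159, 19 and 20. The last 2 were the transcript Gm37464 (562, 912, 37 and 42) and the coding gene 2300002M23Rik (253, 195, 28 and 20). Bhmt, Cox6a2 and Napsa overlap exons of genes on the opposite strand, and Bhmt shares 15.5% of its sequence with other genes.

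Of these 23 genes, 10 were called in each of the 4 fits that left out 1 library: Nedd9, Pde9a, Hey1, Adamts7, Entpd3, Spi1, Serpinf1, Gstt1, Fat2 and Bhmt. A further 7 (Gm11274, Kitl, Hist1h1c, Cdk5r1, Gm26711, Cd24a and Napsa) were called in 0 of these 4 fits, with highest adjusted p between 0.0890 for Napsa and 0.226 for Kitl. The other genes were lost without 1 to 3 of the libraries.

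**Figure D3:**
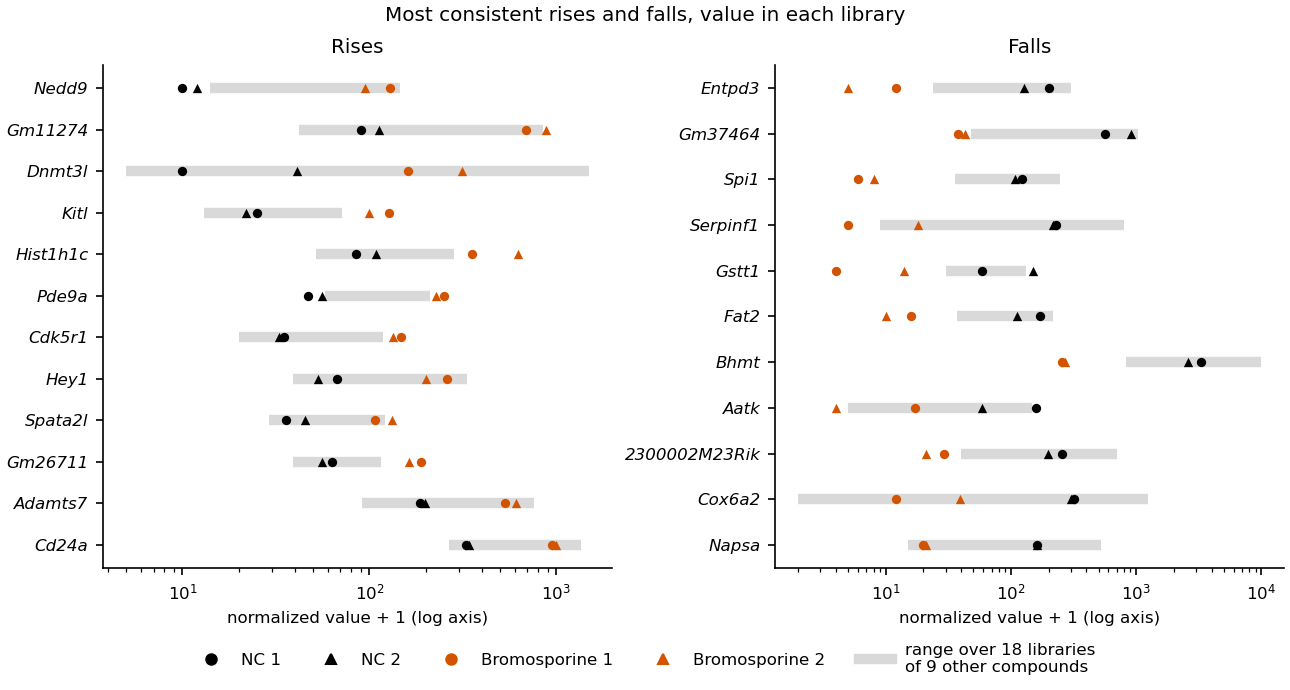
Normalized value + 1 on a log axis of 12 rises (left) and 11 falls (right) among the largest within both replicate numbers, for called genes above 0 in all 4 libraries with a larger group mean of at least 100. Black symbols are NC and orange symbols Bromosporine, circles replicate 1 and triangles replicate 2, and the grey bars span the 18 libraries of other compounds. Both Bromosporine libraries of Spi1 (5 and 7) and of Bhmt (253 and 267) lie outside the grey bar.

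The called genes with the highest levels were chosen for their level and not for the size of their change. Gabbr1, a subunit of the metabotropic GABA receptor, had 2582, 1902, 7719 and 4253 and was above all libraries of other compounds, whose highest value was 3816. It was called in 1 of the 4 fits without 1 library (highest adjusted p = 0.303). Pdgfa, a platelet-derived growth factor, had 1166, 1182, 2710 and 2710, and Cdc42ep4, an effector of the GTPase Cdc42, 680, 712, 2001 and 1749 (log2 change 1.43 ± 0.20, adjusted p = 0.00142). Ntn1, the guidance cue netrin-1, had 657, 1121, 1931 and 2259 with an adjusted p of 0.0485. Of the falls, Ptprs, a receptor tyrosine phosphatase, had 9518, 5833, 3805 and 2697. Dusp9, a phosphatase that inactivates ERK, had 8293, 6943, 881 and 1600 (-2.68 ± 0.66, adjusted p = 0.0315), and was called in 0 of the 4 fits without 1 library. Morc1, which is needed for transposon silencing in the male germline, had 5114, 5432, 1762 and 2503, and all libraries of other compounds lay between 4121 and 7169. Adgre5, an adhesion receptor, had 5966, 3757, 1002 and 1690, and Pcolce, an enhancer of procollagen processing, 4181, 5159, 1243 and 1971. Cdc42ep4 and Pcolce were called in all 4 fits without 1 library, Morc1 in 3, Adgre5 in 2, Ntn1 and Ptprs in 1 (highest adjusted p = 0.361 for Ntn1) and Pdgfa in 0. Pcolce shares exon sequence with Fbxo24 on the same strand, and Adgre5 with Ddx39 on the opposite one.

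**Figure D4:**
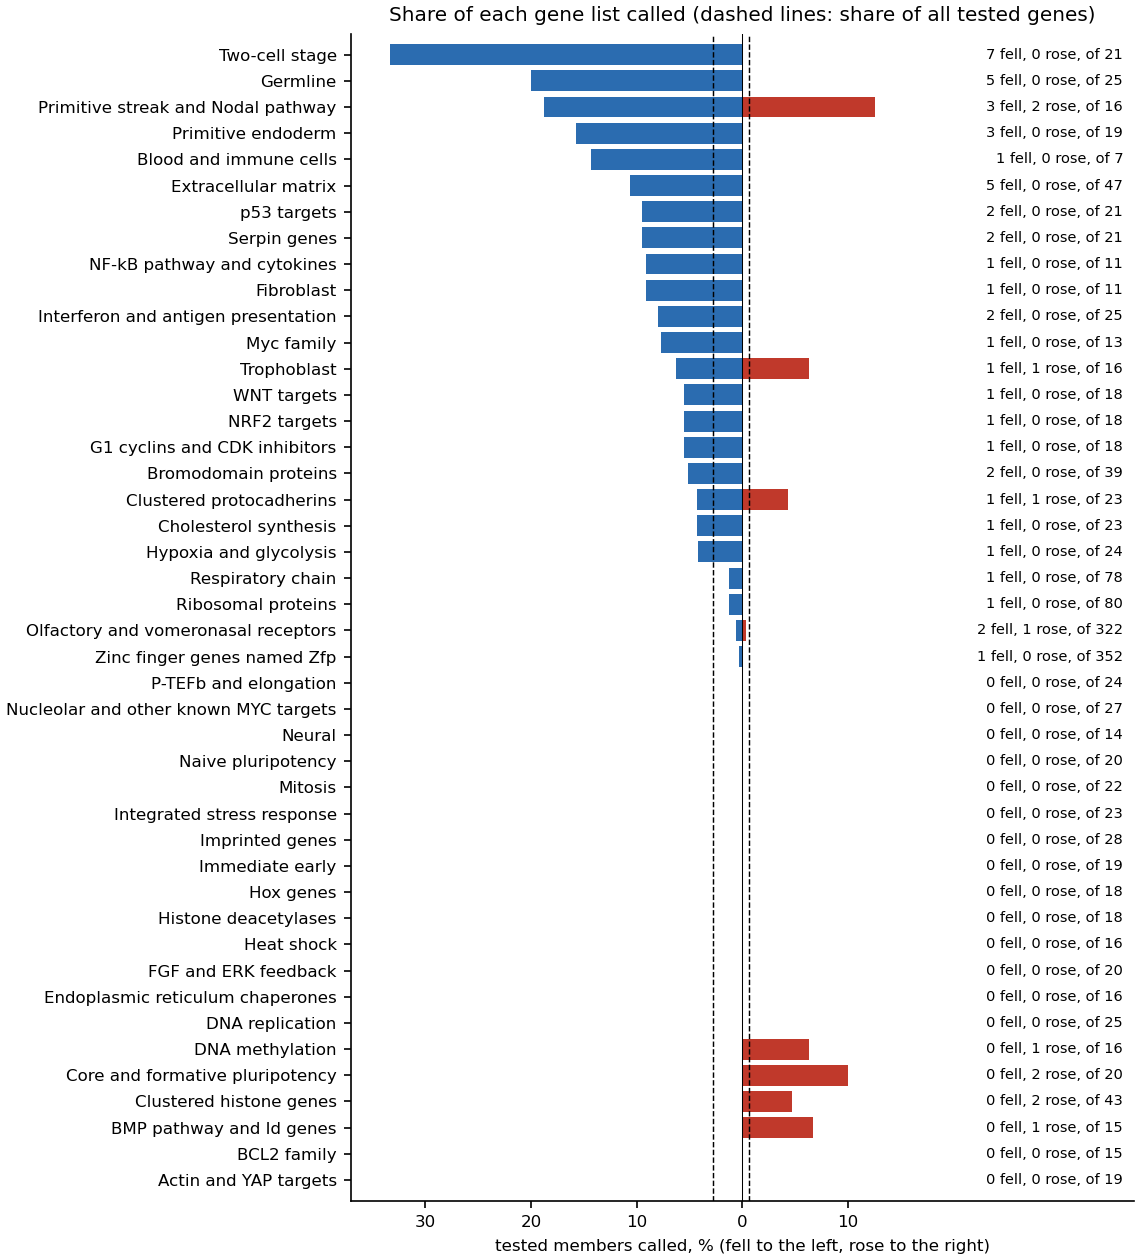
Percent of the tested members of each of 44 gene lists that fell (blue, left) or rose (red, right), with the counts at the right. Dashed lines give the shares of all tested genes, 2.77% that fell and 0.573% that rose. The Two-cell stage list has the longest bar with 7 of 21.

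Lefty1 and Lefty2 fell, while Bmp4 and Eomes rose. Nodal is a ligand of the TGF-beta family that signals through Smad2 and Smad3, and its targets Lefty1 and Lefty2 are secreted antagonists that limit it. Lefty1 (chr1:180935022-180938400) had 669, 1001, 48 and 167, and Lefty2 (chr1:180893108-180899103) had 1761, 3240, 175 and 449. In both genes each Bromosporine library lay below each NC library. The log2 changes were -3.17 ± 0.48 for Lefty1 (adjusted p = 0.00233) and -3.09 ± 0.43 for Lefty2 (adjusted p = 0.00145). The pair shares 25.0% of the 31-base stretches of the longest Lefty1 transcript, so reads may be divided between them. Nodal itself had 1490, 1955, 838 and 1551, its coreceptor Tdgf1 25722, 15640, 19257 and 15030, and its cofactor Foxh1 1253, 1262, 756 and 968, none of them past both thresholds. Eomes, a T-box factor of mesendoderm and trophoblast, rose from 129 and 119 to 331 and 298. In the list of 16 tested primitive streak and Nodal genes 3 fell (18.8%) and 2 rose (12.5%), against 2.77% and 0.573% of all tested genes. The median log2 change was -0.36 among the 15 above 0 in all 4 libraries, against 0.02 for all such genes. T, Mixl1, Gsc and Mesp2, which mark the streak itself, were not called. Lefty1, Lefty2 and Bmp4 were called in all 4 fits without 1 library and Eomes in 0 (highest adjusted p = 0.175). Eomes and Bmp4 each overlap an exon of a gene on the opposite strand.

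BMP ligands signal through Smad1 and Smad5, and the Id genes are their direct targets. Bmp4 (chr14:46383520-46390669) had 8, 9, 69 and 99, and the libraries of other compounds lay between 5 and 76 (log2 change 3.14 ± 0.46, adjusted p = 0.00179). Of the 15 tested BMP and Id genes 1 was called, as a rise (6.67%, against 0.573% of all tested genes). The median log2 change of the 15 was 0.85. Id1 had 57, 94, 138 and 176, Id2 39, 63, 87 and 94, Id3 7, 55, 104 and 296, and Id4 213, 171, 504 and 403. In all 4 Id genes both Bromosporine libraries lay above both NC libraries, with adjusted p between 0.0789 for Id1 and 0.249 for Id3. Bmp2 had 8, 15, 84 and 36, and the inhibitor Smad7 had 1473, 1293, 2538 and 2510, a log2 change of 0.87 ± 0.15 below the 2-fold threshold (adjusted p = 0.00507). Other members lay lower with Bromosporine, Bmp7 at 1010, 371, 344 and 122 and Smad9 at 404, 298, 199 and 122, without a call.

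**Figure D5:**
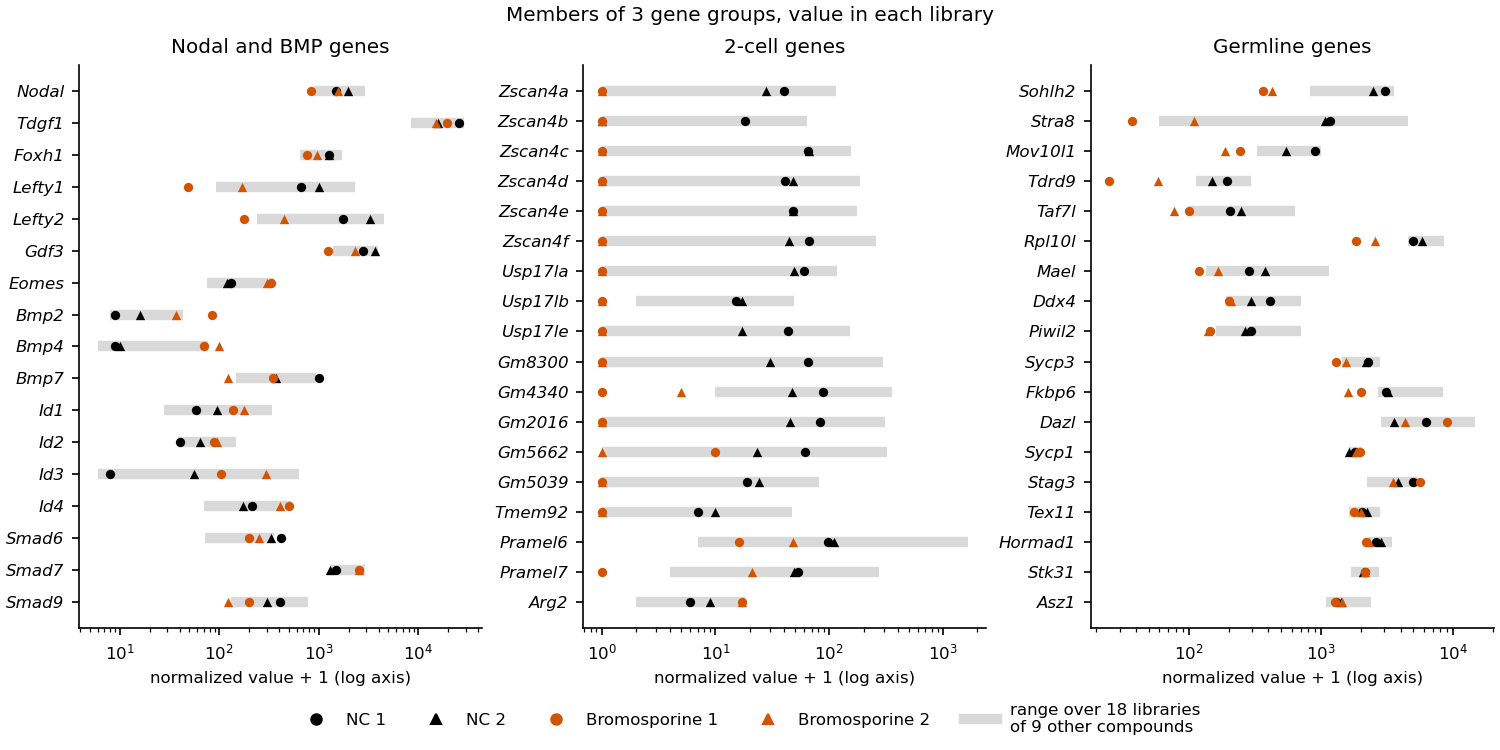
Normalized value + 1 on a log axis for genes of the Nodal and BMP pathways (left), 2-cell genes (middle) and germline genes (right). Symbols and grey bars are as in the plot of the largest rises and falls, and a value of 1 stands for a gene listed at 0. The 6 Zscan4 genes lie at 1 in both Bromosporine libraries, while the NC and Bromosporine symbols of Stk31 and Asz1 in the germline group overlap.

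Genes of the 2-cell stage had the highest share of falls among the 44 lists. A small share of cultured ESCs at any time expresses genes of the 2-cell embryo, among them the Zscan4 zinc finger genes, and bulk RNA cannot tell fewer such cells from less RNA per cell. The values of the 26 listed genes in the table summed to 902 and 664 in NC and to 45 and 96 with Bromosporine. Of these genes, 22 and 21 were listed at 0 in Bromosporine 1 and 2, against 3 and 6 in NC. Among 21 tested members 7 fell (33.3%, against 2.77% of all tested genes) and 0 rose. Of the 21, 17 were over 2-fold lower within both numbers, against 5.28% of all tested genes, and only 2 were above 0 in all 4 libraries. Their median NC mean was 41. Among all tested genes with a mean over the 4 libraries of 30 or less, and between 30 and 100, 5.54% and 4.80% fell. Near-identical copies in the list may count the same reads more than once. Zscan4d had 40 and 47 in NC and 0 in both Bromosporine libraries (adjusted p = 0.00279), and was called in all 4 fits without 1 library. Zscan4c had 64 and 66 in NC, Usp17la 59 and 48, and Gm8300 64 and 29, all with 0 in both Bromosporine libraries. Gm4340 had 88, 46, 0 and 4, and Usp17lb (14 and 16 in NC) and Tmem92 (6 and 9 in NC) were at 0 in both Bromosporine libraries. Gm4340 was called in 2 of the 4 fits without 1 library, and Zscan4c, Usp17la and Gm8300 in 0 (highest adjusted p = 0.242 for Gm8300). Zscan4a, Zscan4e and Zscan4f were at 0 in both Bromosporine libraries without a call, with adjusted p between 0.0504 and 0.0825. Listed members outside this pattern were Arg2, at 5, 8, 16 and 16, and Zscan4b, at 17 in NC 1 and 0 in NC 2. Reads of these families may be divided among copies, since 100% of the Gm4340 sequence, 44.0% of that of Gm8300 and 40.2% of that of Usp17la occur in other genes. Values of 0 also occurred with other compounds for Zscan4c, Zscan4d, Usp17la and Gm8300.

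The Zscan4 copies lie on chromosome 7 and are near-identical, so their values cannot be taken as separate measurements. Of the 31-base stretches of the longest transcript, 91.5% in Zscan4c and 65.0% in Zscan4d occur in other genes. The likeness extends to the promoters, as shown by 114 bases upstream of the annotated starts of 3 copies (RefSeq, GRCm38.p6), with the TATAAA box in capitals. The box begins 54, 65 and 31 bases before the annotated starts of Zscan4c, Zscan4d and Zscan4f:
Zscan4c, chr7:11005601-11005714, plus strand: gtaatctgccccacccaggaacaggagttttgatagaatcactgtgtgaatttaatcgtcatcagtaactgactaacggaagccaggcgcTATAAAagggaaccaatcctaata
Zscan4d, chr7:11166190-11166303, minus strand: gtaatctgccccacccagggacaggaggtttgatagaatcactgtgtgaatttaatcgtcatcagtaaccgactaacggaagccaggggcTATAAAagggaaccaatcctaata
Zscan4f, chr7:11397794-11397907, plus strand: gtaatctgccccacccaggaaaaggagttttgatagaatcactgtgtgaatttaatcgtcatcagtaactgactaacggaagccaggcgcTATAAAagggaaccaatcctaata
Over these 114 bases Zscan4c and Zscan4f were 99.1% identical and Zscan4c and Zscan4d 96.5%. The letters TATAAA, searched on both strands of 250 bases before the start, occurred in 12.4% of 32851 promoters.

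Of the germline genes 5 fell. These genes act in meiosis and in the piRNA pathway, which silences transposons, and ESCs express several of them. Of 25 tested members 5 fell (20%, against 2.77% of all tested genes) and 0 rose. The median log2 change of the 24 above 0 in all 4 libraries was -0.72, against 0.02 for all such genes. Sohlh2, a helix-loop-helix factor of early germ cells (chr3:55182028-55209957), had 3033, 2487, 365 and 427, below all libraries of other compounds, whose lowest value was 828 (log2 change -2.80 ± 0.37, adjusted p = 0.00114). Mov10l1, an RNA helicase of piRNA production, had 900, 540, 242 and 188, and Tdrd9, an RNA helicase of the same pathway, 195, 148, 24 and 58. Taf7l, a germ cell relative of a TFIID subunit, had 205, 248, 99 and 77, and Rpl10l, a testis-enriched copy of a ribosomal protein gene, 4991, 5756, 1834 and 2538. Sohlh2, Mov10l1 and Tdrd9 were called in all 4 fits without 1 library, Rpl10l in 3 and Taf7l in 0 (highest adjusted p = 0.202). Rpl10l shares 23.4% of its sequence, mainly with Gm14460. Stra8, an activator of meiotic entry, had 1159, 1067, 36 and 109, with an adjusted p of 0.0943. Sycp3 (2266, 2202, 1295 and 1546) and Piwil2 (295, 264, 143 and 140) had adjusted p of 0.00702 and 0.00603 with changes under 2-fold. Dazl, Sycp1, Stag3, Asz1, Stk31 and Hormad1 were not called, and their log2 changes lay between -0.27 for Hormad1 and 0.40 for Dazl.

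Many germline promoters carry the E-box CACGTG, which is bound by basic helix-loop-helix factors such as Max with Mga. The letters occurred on either strand within 250 bases before the start in 13 of the 23 listed germline genes with a promoter sequence, against 6.02% of all 32851 promoters. A gene with several promoters counted if any of them held the letters, while the 6.02% counts single promoters. The germline share is therefore somewhat favoured in this comparison. The E-box was present in 3 of the 5 called genes and in 10 of the 18 that were not called. Windows around it (RefSeq, GRCm38.p6, E-box in capitals) are shown for the 3 genes that fell and for Hormad1 and Stk31, which were not called:
Taf7l, chrX:134476517-134476556, minus strand: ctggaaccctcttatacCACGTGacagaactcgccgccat
Tdrd9, chr12:111971447-111971486, plus strand: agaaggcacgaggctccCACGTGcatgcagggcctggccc
Mov10l1, chr15:88982744-88982770, plus strand: ccttCACGTGctaaccgccaacctctc
Hormad1, chr3:95559640-95559676, plus strand: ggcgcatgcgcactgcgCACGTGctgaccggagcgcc
Stk31, chr6:49395467-49395506, plus strand: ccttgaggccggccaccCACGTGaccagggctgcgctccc
Hormad1 had 2588, 2826, 2178 and 2320, and Stk31 had 2131, 2080, 2131 and 2154. The motif was found among genes that fell and among genes that did not pass the test.

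The naive and the core pluripotency lists differed in their counts. None of the 20 tested naive pluripotency genes was called, and their median log2 change was 0.03. Their log2 changes ran from -0.90 to 1.68. Of the 20, 1 was over 2-fold higher within both numbers, against 1.38% of all tested genes. In a fit with the replicate number as a block, 1 of the 20 was called as a rise. Tbx3, a T-box factor of the naive network, had 5662, 4970, 9979 and 7260, and the adjusted p was 0.0174 with a log2 change of 0.68 ± 0.15, under 2-fold. Pecam1, a surface protein, had 5695, 4160, 2520 and 2704 (adjusted p = 0.0230, also under 2-fold). Klf4 had 4590, 3429, 6417 and 4958, and Esrrb 28640, 26729, 27752 and 24752. In the list of 20 core and formative genes 2 rose (10%, against 0.573% of all tested genes) and 0 fell. Utf1, a chromatin protein of undifferentiated cells (chr7:139943789-139945112), had 1283, 1467, 4117 and 3935 (1.55 ± 0.23, adjusted p = 0.00174). Foxd3, a forkhead factor of ESCs and neural crest, had 773, 811, 1662 and 1850 (1.15 ± 0.18, adjusted p = 0.00262), and both genes were called in all 4 fits without 1 library. For both, the highest value among the other compounds exceeded the Bromosporine values, at 5749 and 3607.

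Of 16 tested genes that write, read or erase DNA methylation, 1 rose (6.25%, against 0.573% of all tested genes) and 0 fell. Dnmt3l, the cofactor without catalytic activity of the de novo methyltransferases, had 9, 40, 160 and 311 (log2 change 3.47 ± 0.92, adjusted p = 0.0443). The NC values of 9 and 40 lay apart, and the call was lost without Bromosporine 1, Bromosporine 2 or NC 1 (highest adjusted p = 0.346). Dnmt3l overlaps Aire on the opposite strand, and its values in other compounds ran from 4 to 1487. Dnmt3a had 572, 613, 222 and 414, Dnmt3b 630, 1277, 1209 and 2067, and Dnmt1 15612, 13829, 15007 and 13327, without a call.

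Extracellular matrix genes include collagens, their chaperones and processing enzymes, and the laminins and nidogens of basement membranes. Of 47 tested members 5 fell (10.6%, against 2.77% of all tested genes) and 0 rose. The median log2 change of the 39 above 0 in all 4 libraries was -0.42, against 0.02 for all such genes. Serpinh1, the collagen chaperone HSP47 (chr7:99345376-99353239), had 4328, 3096, 769 and 759 (-2.26 ± 0.27, adjusted p = 0.000618). Mmp14, a membrane-bound collagenase, had 352, 347, 94 and 87 (-1.94 ± 0.22, adjusted p = 0.000458). Both genes were called in all 4 fits without 1 library. Tgfbi, a matrix protein induced by TGF-beta, had 813, 296, 84 and 52, Col1a1, a chain of type I collagen, 24, 24, 7 and 6, and the glycoprotein Tnc 6 and 17 in NC and 0 in both Bromosporine libraries. These 3 calls were lost without 2 or 3 of the libraries (highest adjusted p between 0.0717 and 0.205). Libraries of other compounds reached as low as 255 for Serpinh1, 31 for Mmp14 and 16 for Tgfbi, under the Bromosporine values. Against the mean of the other compounds, Mmp14 and Tgfbi were not called. For Col1a1 and Tnc both Bromosporine libraries lay below all libraries of other compounds, whose lowest values were 10 and 3. The basement membrane genes varied. Sparc had 7573, 6058, 3764 and 3781 (adjusted p = 0.0319, under 2-fold) and Lamc1 53841, 49312, 35221 and 33603, while Lama1, Col18a1 and Hspg2 had overlapping groups or higher values with Bromosporine. Among 21 tested serpin genes, Serpinf1 and Serpinh1 fell (9.52%, against 2.77% of all tested genes) and 0 rose. The lists were chosen with earlier results known, and both genes were also among those chosen for their role. The serpin share is therefore no separate evidence. Serpinh1 counts in the extracellular matrix and primitive endoderm lists as well.

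Lists of other cell types held from 0 to 3 calls each, against 2.77% of all tested genes that fell and 0.573% that rose. Of 19 tested primitive endoderm genes 3 fell (15.8%), among them Serpinh1 and Srgn (235, 159, 87 and 43). Srgn was called in 1 of the 4 fits without 1 library. The defining factors Gata4 and Sox17 were at 156, 154, 165 and 120 and at 43, 30, 63 and 37, and Gata6 was at 192, 115, 63 and 12 with an adjusted p of 0.0804. The whole list summed to 24494 and 17906 in NC and to 17477 and 12167 with Bromosporine. Of 16 tested trophoblast genes 1 rose and 1 fell. The list summed to 5497 and 4211 against 8546 and 5601, with Eomes rising, Hand1 falling (9 and 4 in NC, 0 in both Bromosporine libraries, called in 0 of the 4 fits without 1 library), and Cdx2 at 9 or less in every library. Of 7 tested blood genes 1 fell (14.3%), Spi1. Ptprc was listed at 0 in all 4 libraries, and the list summed to 741 and 643 against 471 and 352. In the fibroblast list, which summed to 9752 and 15264 against 10104 and 12599, 1 of 11 tested genes fell (9.09%), Col1a1, and Dcn and Lum were listed at 0 in all 4 libraries. None of 14 tested neural genes was called, and their sums were 7069 and 12392 against 8717 and 11756. The part of other cell types in the changes of these genes was not tested.

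RNA of most of the proteins that Bromosporine addresses did not pass the test. Brd2 had 8811, 9518, 10288 and 12098, and Brd3 3291, 3053, 3027 and 3259, with log2 changes of 0.28 ± 0.15 and -0.01 ± 0.14. Of 39 tested bromodomain genes 2 fell (5.13%, against 2.77% of all tested genes) and 0 rose, and the median log2 change was -0.01. Trim66, a relative of Trim24 and Trim28, had 425, 359, 115 and 133 (-1.65 ± 0.22, adjusted p = 0.00109), called in all 4 fits without 1 library. Sp110, a nuclear body protein, had 25, 24, 0 and 5, and 69.3% of its transcript sequence occurs in other genes. Its call held in 1 of the 4 fits without 1 library. The acetyltransferase gene Kat2b had 3321, 2721, 1649 and 2094 (adjusted p = 0.0250, under 2-fold). Among 24 genes of P-TEFb and elongation 0 were called, with log2 changes from -0.30 to 0.38. Hexim1, the P-TEFb inhibitor that is widely used as a marker of BET inhibition, had 1181, 1607, 1519 and 2039 (adjusted p = 0.658).

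Myc, which BET inhibitors lower in many cancer cells, had low values of 4, 19, 36 and 89, with an adjusted p of 0.152, and Mycn, the main Myc gene of ESCs, had 3525, 2625, 4991 and 4212 (adjusted p = 0.264). Both stood higher with Bromosporine within both numbers. Mlxipl, a glucose-responsive factor of the extended Myc network, fell from 834 and 737 to 247 and 279 (log2 change -1.57 ± 0.38, adjusted p = 0.0286), though in 0 of the 4 fits without 1 library. Of 27 nucleolar and other known MYC targets 0 were called, and their median log2 change was 0.00. Clustered histone genes had a median log2 change of 0.68 among the 42 above 0 in all 4 libraries. Of the 43 tested, 9 were over 2-fold higher within both numbers, against 1.38% of all tested genes. Their median NC mean was low, at 22.5. The RNA was poly(A)-selected, and the part of this selection in the histone values was not tested. Hist1h1c and Hist3h2a (197, 175, 503 and 559) rose (4.65%, against 0.573% of all tested genes), and 0 fell. Hist3h2a shares 32.1% of its sequence with other genes, mainly Trim17 on the same strand. Neither of the calls held in any of the 4 fits without 1 library. Of 18 histone deacetylase genes 0 were called, with a median of 0.17.

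Cell cycle lists held a single call, 1 fall among 18 tested G1 cyclins and CDK inhibitors (5.56%, against 2.77% of all tested genes). Ccnd1, the cyclin D1 gene, fell from 3394 and 4050 to 1177 and 1931, below the 3089 to 5395 of all libraries of other compounds (log2 change -1.30 ± 0.29, adjusted p = 0.0194). This call was lost without Bromosporine 1, NC 1 or NC 2 (highest adjusted p = 0.190), and 28.1% of the Ccnd1 sequence is shared, mainly with LTO1 on the opposite strand. Ccnd3, the more abundant D cyclin here, had 13763, 14325, 16296 and 16296. The inhibitor Cdkn2b had 271, 290, 469 and 453 with an adjusted p of 0.00251, under 2-fold, and Cdkn1a 6054, 5364, 6168 and 5111. In the lists of 25 replication and 22 mitosis genes 0 were called, with medians of -0.03 and -0.06. The 15 BCL2 family genes also held 0 calls.

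Signalling and stress lists held from 0 to 2 calls each, all of them falls, against 2.77% of all tested genes that fell. Of 23 integrated stress response genes 0 were called, but their median log2 change was -0.49. Among them Phgdh, the first enzyme of serine synthesis, had 7894, 6544, 3975 and 4454 (adjusted p = 0.00528), and Atf5 3704, 3175, 1321 and 2293 (adjusted p = 0.0307), both under 2-fold. Of 21 p53 targets 2 fell (9.52%). Gdf15, a stress-induced cytokine, had 2582, 1801, 561 and 570 (-1.93 ± 0.26, adjusted p = 0.00106) and was called in all 4 fits without 1 library, and the death receptor Fas had 21 in both NC libraries and 0 in both Bromosporine libraries. Interferon and antigen presentation genes had 2 falls among 25 tested (8%), the RNA sensor Ifih1 (53 and 26 in NC, 0 in both Bromosporine libraries) and the membrane protein Ifitm3 (2944, 2611, 846 and 1382). Ifitm3, which shares 20.5% of its sequence with other genes such as Ifitm1, was called in 2 and Fas and Ifih1 in 0 of the 4 fits without 1 library. Single genes fell in the NF-kB list (Traf1, 72, 69, 18 and 26, of 11 tested), the NRF2 list (Osgin1, 19, 12, 2 and 0, of 18), the hypoxia list (Pfkfb3, 1105, 709, 397 and 365, of 24) and the WNT list (Ccnd1, of 18). Of these, Osgin1 and Pfkfb3 were called in 3 of the 4 fits without 1 library and Traf1 in 1. The heat shock, endoplasmic reticulum chaperone, immediate early, FGF feedback, imprinted, Hox, and actin and YAP lists held 0 calls, with medians between -0.70 for the 18 Hox genes and 0.29 for the 19 immediate early genes.

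Large gene families held from 1 to 3 calls each, against 2.77% of all tested genes that fell and 0.573% that rose. Of 80 ribosomal protein genes 1 fell, Rpl10l, and of 78 respiratory chain genes 1 fell, Cox6a2. Of 352 genes named Zfp 1 fell, Zfp536 (176, 199, 65 and 89), with a median log2 change of 0.21 over the family. Clustered protocadherins had 1 rise, Pcdhgc5 (41, 24, 85 and 88), and 1 fall, Pcdhb22 (40, 29, 11 and 4), among 23. Of 322 olfactory and vomeronasal receptor genes 2 fell and 1 rose. Olfr1491 was at 465 and 724 in NC and at 0 in both Bromosporine libraries, and Olfr1116 had 0, 0, 458 and 540. Among the other compounds both genes also took the value 0 and ran up to 657 and 835. These 2 calls held in 0 of the 4 fits without 1 library, and those of Zfp536, Pcdhgc5 and Pcdhb22 in 1.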

How the data were processed

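Poly(A)-selected RNA from E14 ESCs was sequenced in 22 libraries, 2 per group. Groups and numbers come from the titles and treatment labels. The deposited values are scores, read counts per gene that the authors normalized (EDASeq, full setting) and rounded to whole numbers, after alignment to mm10. The submitters' processing notes name bcl2fastq, Bowtie2 2.2.5 and RSEM, and which counting step made the table was not stated. The deposited table of group means differed by at most 0 from means of the libraries and was not used further. Quantile normalization hides depth and total RNA, so no interval from counts is given, and it makes some values identical.

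Values were analysed as log2(value + 1) with limma 3.58.1 in R 4.3.3. Genes reaching 10 in at least 2 libraries were kept (17275 of 18487). A model with 11 group means over all 22 libraries had 11 residual degrees of freedom. Bromosporine was contrasted with NC and with the mean of the 9 other compounds, variances were moderated with a trend, p-values (two-sided) were adjusted by Benjamini-Hochberg, and a call needed an adjusted p under 0.05 and a log2 change over 1. On simulated data with 200 of 17275 genes changed, the fit called 49 of 100 genes changed by 1.5 on the log2 scale. It called 81 of 100 changed by 3 and made 3 false calls. How many of the calls in the deposited data were false was not tested.

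The comparison, the 44 gene lists and the rule for named genes were chosen with earlier results of these data known. A list share above that of all tested genes is therefore no separate evidence. The rule took called genes above 0 in all 4 libraries with a larger group mean of at least 100, both Bromosporine libraries beyond both NC libraries and over 2-fold within both numbers (283 genes). From these it named the 12 rises and 12 falls with the largest smaller within-number change and the 6 of each with the highest level, and in addition up to 5 called genes per list by size of change and 21 genes chosen for their role. List members without a call were named for their role after their values had been seen. Alternatives were a pseudocount of 10, no low-value filter, a fit of the 4 libraries alone, a replicate block, median-ratio rescaling, no variance trend and leaving out each library. Positions come from GENCODE M21, in which 97.1% of tested symbols were found. Shares of sequence in common count 31-base stretches of the longest transcript. Promoters come from RefSeq, which covered 70.1% of falling and 57.6% of rising genes, so a comparison of promoter properties over all called genes was void. Python 3.11.15 and matplotlib 3.10.9 were used for sequences and plots. Values of 4 genes are not reported here.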

Additional observations from a re-analysis of the deposited data

How the results depend on the processing

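The 577 calls against NC (99 rose, 478 fell) became 128 (37 and 91) when only the Bromosporine and NC libraries were fitted, with 43 of the 577 shared. Leaving out 1 library gave 218 to 487 calls, 27 to 90 rising and 186 to 429 falling. Against the mean of the other compounds, leaving out 1 Bromosporine library gave 411 to 655 calls (30 to 76 rising, 381 to 579 falling), against both references 238 to 394 (10 to 31 rising, 228 to 363 falling). With a pseudocount of 10, 143 genes were over 2-fold higher within both numbers, against 238.

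With the replicate number as a block there were 1189 calls against NC (240 rose, 949 fell), including all 577, then 205 rises against the other compounds and 762 calls against both references (85 rose, 677 fell). Over the 55 pairs of groups the number differences correlated at 0.0535 to 0.298 (0.165 for Bromosporine and NC), and 22 of 22 libraries correlated best with their own number. Both libraries of a group deviate from their mean by equal and opposite amounts. The 22 of 22 therefore follows from the positive correlations and is no further evidence. Because not every pair passed 0.1, the numbers were not taken to pair the libraries. The block kept all 76 named calls and added Myc.

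A pseudocount of 10, no filter, no variance trend and median-ratio rescaling gave 490, 574, 604 and 608 calls and kept 70, 75, 73 and 74 of the 76 named calls. The 4-library fit kept 13. Called in every alternative were Spi1, Bhmt, Utf1, Zscan4d and Sohlh2. No named call changed sign in any alternative. The share of calls that fell was 82.8%, and 71.1% in the 4-library fit. Rescaling moved the median of all genes by -0.02. Depth is unknown, so absence of low genes cannot be separated from lack of reads.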

Other observations

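After the values had been seen, tested genes were ordered along each chromosome by their GENCODE M21 start, and 84 of the 478 falling genes were found in 40 runs of 2 or more neighbours, the longest of 4 genes. Rising genes formed 2 such runs with 5 genes. Some runs held overlapping genes or near-identical copies, such as Usp17la and Usp17lb. How many runs the same number of genes would form by their order alone was not tested.

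In the run of 4 on chromosome 7 (chr7:30434982-30487223 in mm10) lay genes of the kidney filtration slit and a gene related to the amyloid precursor. Nphs1, the slit protein nephrin, had values of 2608, 2175, 171 and 382 in NC 1, NC 2, Bromosporine 1 and Bromosporine 2 (log2 change -3.21 ± 0.34). Its neighbour Kirrel2, which encodes a related adhesion protein, had 1798, 1449, 102 and 247 (-3.34 ± 0.38), and Aplp1 had 3460, 3018, 1409 and 1465 (-1.17 ± 0.25). The fourth gene, Nphs1os, overlaps Nphs1, so its reads may be shared. Libraries of other compounds reached as low as 134 for Nphs1 and 72 for Kirrel2.

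A run of 3 on chromosome 13 (chr13:93616675-93752833) held the enzyme genes Bhmt, Bhmt2 and Dmgdh. Beside Bhmt, described above, Bhmt2, which also methylates homocysteine, had 654, 584, 250 and 246 (-1.31 ± 0.19), and Dmgdh, which oxidizes the dimethylglycine that Bhmt makes, had 1486, 1100, 319 and 257 (-2.15 ± 0.21). For all 3 genes both Bromosporine libraries lay below the lowest library of the other compounds, at 834, 334 and 423. A run of 3 on chromosome 1 held the chitinase Chit1 (124, 96, 14 and 18), the related Chil1 (63, 70, 15 and 16) and Mybph (87, 52, 2 and 4).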
